A study of Mus musculus with 2 samples.

Results

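A set of 10 genes of monocyte recruitment and of the CSF1 axis were followed in Hepa1-6 tumours: Ccl2, Ccl7, Ccl8, Ccl12, Ccr2, Ccr1, Cx3cr1, Csf1, Il34 and Csf1r. They were found by gene symbol among the 32285 genes of the count matrices, and all 10 were present. Together they held 67833 UMIs (unique molecular identifiers, each 1 captured RNA molecule) in the CD147-LYTACs library and 49472 in the control library.

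Hepa1-6 is a mouse hepatoma cell line, here grown as a tumour in mice, and CD147-LYTACs are lysosome-targeting chimaeras directed at the surface protein CD147. Treated mice received 4 doses of 40 mg/kg at intervals of 3 days, with harvest on day 12. The route is given as intraperitoneal or intravenous, and what the control mice received, the strain and age of the mice, and the number of tumours per library are not given in the sources used here. Each group was 1 droplet library of 10x Genomics type, so no difference between the groups has a replicate check, there is no test between them, and all intervals below cover counting error only. Cells had been sorted into CD45-negative and CD45-positive fractions and recombined at 1 part to 3, which sets the ratio of tumour to immune cells in both libraries.

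Monocytes are drawn from marrow and blood into tissues by the chemokines CCL2, CCL7 and CCL12, which bind the receptor CCR2. CCL8 lies in the same gene cluster and in mice signals through CCR8. Once in a tissue, monocytes and macrophages depend on the receptor CSF1R, whose ligands are CSF1 and IL-34. In tumours this axis is known as a route by which macrophages accumulate.

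The 4 chemoattractant genes lie in a row on the plus strand of chromosome 11 (GRCm38, GENCODE M21): Ccl2 at chr11:82035571-82037453, Ccl7 at chr11:82045712-82047525, Ccl12 at chr11:82101845-82103400 and Ccl8 at chr11:82115185-82116799, within 81229 bases. Csf1 is on the minus strand at chr3:107741048-107760469, Il34 on the minus strand at chr8:110741829-110805924, Ccr1 on the minus strand at chr9:123962124-123968692 and Ccr2 on the plus strand at chr9:124101950-124113557. All are annotated as protein-coding. The Cx3cr1 model, on the minus strand at chr9:119901616-120069879, spans 168264 bases and overlaps 9 other counted genes, among them Gorasp1, Csrnp1 and Xirp1 on its own strand. How reads in such overlaps were assigned was not stated in the labels or headers, so Cx3cr1 values are uncertain. Ccl2, Il34 and Csf1r each overlap at least 1 other gene on the opposite strand.

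RefSeq promoter sequences (GRCm38.p6, 250 bases before to 50 after the gene start) were looked up for every gene but Csf1r, and matched 6 of the 10 genes. Those of 2 neighbouring chemoattractant genes and of the growth factor gene Csf1 are shown because they are the ligand genes with a match. Capitals mark 3 motifs searched on both strands: TATAAA (the TATA box), GAGGAA (the core bound by PU.1, a factor of myeloid cells) and a kappa-B site. The capitals in Csf1 are the reverse complement of the kappa-B letters.
Ccl8, chr11:82114935-82115234, plus strand: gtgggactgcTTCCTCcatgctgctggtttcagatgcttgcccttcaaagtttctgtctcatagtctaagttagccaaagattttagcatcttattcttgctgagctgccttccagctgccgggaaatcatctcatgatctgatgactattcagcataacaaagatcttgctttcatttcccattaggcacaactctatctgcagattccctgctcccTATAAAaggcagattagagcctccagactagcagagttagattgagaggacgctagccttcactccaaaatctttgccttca
Ccl12, chr11:82101595-82101894, plus strand: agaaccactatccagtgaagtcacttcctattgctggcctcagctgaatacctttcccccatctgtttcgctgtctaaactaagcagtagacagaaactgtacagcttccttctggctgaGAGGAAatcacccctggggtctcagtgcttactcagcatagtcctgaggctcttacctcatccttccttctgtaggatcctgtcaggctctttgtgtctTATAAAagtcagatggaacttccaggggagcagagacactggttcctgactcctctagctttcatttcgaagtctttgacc
Csf1, chr3:107760420-107760719, minus strand: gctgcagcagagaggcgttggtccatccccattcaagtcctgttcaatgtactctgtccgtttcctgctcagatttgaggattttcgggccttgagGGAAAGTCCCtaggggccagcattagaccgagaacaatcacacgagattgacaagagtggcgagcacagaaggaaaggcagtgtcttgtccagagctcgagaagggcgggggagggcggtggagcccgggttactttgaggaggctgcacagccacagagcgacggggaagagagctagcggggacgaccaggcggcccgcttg
The TATA motif began 32 bases before the start in Ccl8 and 31 bases before it in Ccl12, and 13.6% of all 32851 promoters held it. Both also held 1 PU.1 core each, a motif found in 28.3% of promoters. The Csf1 window held no TATA motif and 1 kappa-B match, on the opposite strand, which began 154 bases before the start, and 0.155% of promoters held that motif. These matches describe letters in the windows only.

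The CD147-LYTACs library held 9219 barcodes and 149812326 UMIs, and the control library 8150 barcodes and 143495332 UMIs, with 24 barcodes occurring in both. After filtering, 6819 cells of the CD147-LYTACs library and 6257 control cells carried the markers of 1 cell class. Cells of 6 classes were numerous enough for description, with at least 100 in each library. In CD147-LYTACs and control, these held 218 and 106 monocytes, 331 and 110 macrophages, 1201 and 154 neutrophils, 1892 and 2565 CD8 T cells, 164 and 257 CD4 T cells, and 2095 and 1942 hepatoma cells. The hepatoma class had UMIs of 11 and 9 of its 11 markers in the 2 libraries, with H19 and Dlk1 at 0 in control. Barcodes with markers of more than 1 class were set apart and made up 5.97% of kept barcodes in CD147-LYTACs and 2.44% in control. Levels are given as CPM, the UMIs of a gene per 1000000 UMIs summed over the cells of a class.

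The chemoattractant genes Ccl2 and Ccl7 were higher in monocytes and macrophages of the treated tumours, while the hepatoma cells' Il34 and the receptor genes Ccr2 and Csf1r in monocytes differed by less than 1.5-fold. In the joint class of monocytes and macrophages described below, Ccr2 was 1.57-fold lower in CD147-LYTACs. Over the 6 classes, 36 pairs of gene and class had at least 100 UMIs over both libraries, and 12 of these were at least 1.5-fold higher and 3 at least 1.5-fold lower in CD147-LYTACs. In monocytes, 5 of the 7 genes with enough UMIs were higher and 0 lower, where 8.29% of all 3283 genes tested were higher and 8.77% lower. The 5 were Ccl2, Ccl7, Ccl8, Ccr1 and Cx3cr1, of which Ccl8, Ccr1 and Cx3cr1 did not keep the difference in every alternative, as given below for each. In macrophages, 2 of 7 were higher and 1 lower, against 8.38% and 9.28% of 4332 genes. In neutrophils, 1 of 5 was higher and 1 lower, against 7.93% and 18.2% of 3809 genes. CD8 T cells had 3 of 7 higher and 0 lower, against 1.83% and 1.14% of 10263 genes. CD4 T cells had 0 of 3 higher and 1 lower, against 2.21% and 3.44% of 5168 genes. Hepatoma cells had 1 of 7 higher and 0 lower, against 1.52% and 2.19% of 13706 genes.

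**Figure D1:**
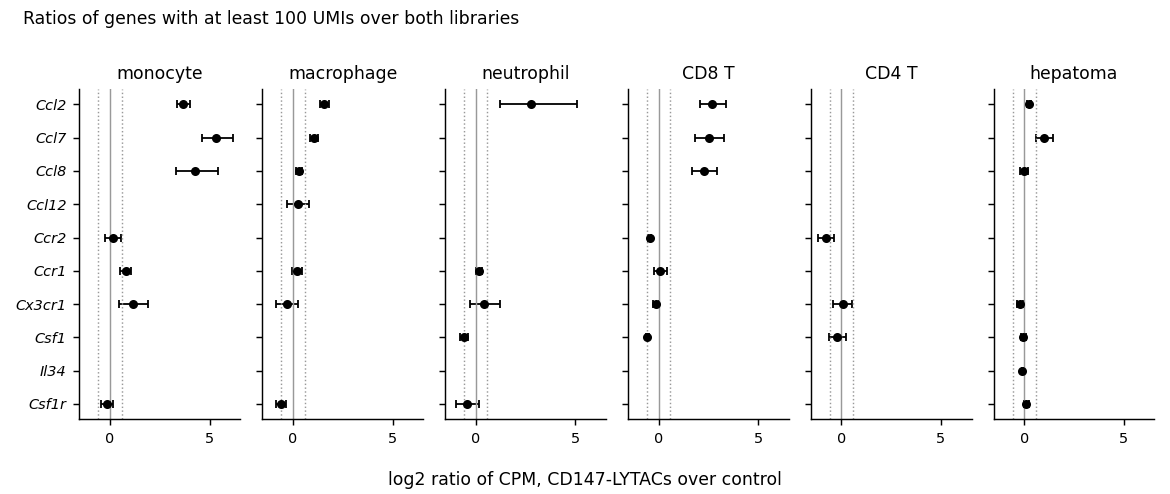
Log2 ratio of CPM, CD147-LYTACs over control (horizontal axis), for each gene that reached 100 UMIs, libraries summed, in 6 gated classes (panels). Points are single ratios of 1 library to 1 library, bars are exact 95% intervals for counting error, and dotted lines mark 1.5-fold; Ccl7 in monocytes lies farthest right at 5.32.

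Ccl2 encodes the main chemokine drawing CCR2-bearing monocytes. In monocytes it stood at 1288 CPM in CD147-LYTACs (95% interval 1225 to 1353, 1575 UMIs) and at 102 CPM in control (80.5 to 127, 78 UMIs), a log2 ratio of 3.66 (3.33 to 4.01). In macrophages the level was 584 CPM in CD147-LYTACs (552 to 617) and 197 CPM in control (168 to 228), a log2 ratio of 1.57 (1.34 to 1.81). The intervals of the 2 libraries did not overlap in either class. The macrophage difference was smaller when every cell had equal weight, at a log2 ratio of 0.82. After thinning every cell to 1000 UMIs, 41.0% of 210 treated monocytes (exact 95% interval 34.2 to 47.9) and 8.49% of 106 control monocytes (3.96 to 15.5) held a Ccl2 UMI, and without thinning 56.0% and 22.6% did. In macrophages the thinned shares were 26.5% of 309 cells in CD147-LYTACs and 13.3% of 98 cells in control. CD8 T cells, which should lack the gene, had thinned shares of 0.741% in CD147-LYTACs and 0.117% in control. Median depth was 4636.5 and 5858.5 UMIs in monocytes and 6520 and 6525 UMIs in CD8 T cells.

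Expression was uneven among the cells. The 10 treated monocytes with the most Ccl2 UMIs held 50.6% of them, with up to 148 in a cell, and the 10 highest control monocytes held 79.5%, with up to 16 in a cell. Ccl2 and Ccl7 occurred in the same cells: after thinning, 57.0% of the 86 Ccl2-positive treated monocytes held a Ccl7 UMI, and 4.03% of the 124 without Ccl2 did. Among treated macrophages these shares were 59.8% of 82 and 14.5% of 227, and among control macrophages 76.9% of 13 and 10.6% of 85. Only 9 control monocytes were Ccl2-positive after thinning, of which 1 held Ccl7. Ccl8 had a UMI in 17.1% of Ccl2-positive and 16.3% of Ccl2-negative treated macrophages, and in 38.5% and 18.8% of control macrophages, the first from 13 cells.

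Ccl7 encodes a chemokine that shares CCR2 and CCR1 as receptors. Its level in monocytes was 783 CPM in CD147-LYTACs (735 to 835) and 19.6 CPM in control (11.0 to 32.3, 15 UMIs), a log2 ratio of 5.32 (4.59 to 6.17). In macrophages it was 668 CPM in CD147-LYTACs (633 to 704) and 322 CPM in control (286 to 362), a log2 ratio of 1.05, which fell below 1.5-fold with equal weight per cell (0.48) and in Leiden clusters (0.51). By summed UMIs of the marker-gated classes the difference was past 1.5-fold in both, but in macrophages not in those alternatives. After thinning, 25.7% of treated and 2.83% of control monocytes held a Ccl7 UMI.

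The size of these monocyte differences varied with the rule that set monocytes apart from macrophages. Monocytes of CD147-LYTACs also carried more UMIs of the 8 macrophage markers, 626 CPM against 252 CPM in control, and more of the 6 monocyte markers, 3531 CPM against 2469.5 CPM, with all 14 markers detected in both libraries. Within 1.5-fold of the line between the 2 marker lists lay 16 of 218 treated and 4 of 106 control monocytes, and 12 of 331 treated and 3 of 110 control macrophages. Without the cells near the line, Ccl2 and Ccl7 in monocytes stayed past 1.5-fold. In monocytes without any macrophage-marker UMI, Ccl2 stood at 384 CPM in 86 treated cells and 48.9 CPM in 69 control cells, a log2 ratio of 2.97, and Ccl7 at 132 CPM and 6.38 CPM (3 control UMIs), a log2 ratio of 4.37. When classes came from Leiden clusters, Ccl2 was at 588 CPM in 90 treated monocytes and 218 CPM in 71 control monocytes, a log2 ratio of 1.43, and Ccl7 at 295 CPM and 114 CPM, a log2 ratio of 1.37. The joint class of monocytes and macrophages, which needs no such line and adds 110 treated and 39 control cells assigned to neither, had Ccl2 at 793 CPM in 659 treated cells and 146 CPM in 255 control cells, a log2 ratio of 2.44 (2.26 to 2.63), and Ccl7 at 649 CPM and 171 CPM, a log2 ratio of 1.92 (1.75 to 2.10). Across the other processing choices run for this joint class, the Ccl2 ratio stayed between 1.96 and 2.50 and the Ccl7 ratio between 1.44 and 2.02.

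Ccl8 had a different distribution. Macrophages held it at 689 CPM in CD147-LYTACs (654 to 726) and 559 CPM in control (510 to 610), a log2 ratio of 0.30 that lies within 1.5-fold. In monocytes it stood at 224 CPM in CD147-LYTACs and 11.7 CPM in control (9 UMIs), but 10 treated cells held 97.8% of the 274 treated UMIs. In Leiden clusters the order turned round, with 36.9 CPM in treated and 85.9 CPM in control monocytes from 17 and 43 UMIs. No direction for Ccl8 in monocytes can be read from these values. Ccl12, encoding another CCR2 ligand that is found in mice, was at 52.0 CPM in treated (42.7 to 62.7) and 43.4 CPM in control macrophages (30.7 to 59.6), and the intervals overlapped; the log2 ratio of 0.26 turned to -0.54 with equal weight per cell. Monocytes had 65 Ccl12 UMIs in CD147-LYTACs and 6 in control, under the 100 needed for a ratio. In the joint class of monocytes and macrophages both genes were past 1.5-fold. Ccl8 was 1.71-fold higher in treated cells there (473 against 276 CPM), and Ccl12 1.95-fold higher (47.7 against 24.4 CPM, from 176 and 44 UMIs). How far the mix of monocytes and macrophages in each library sets these joint values was not tested.

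**Figure D2:**
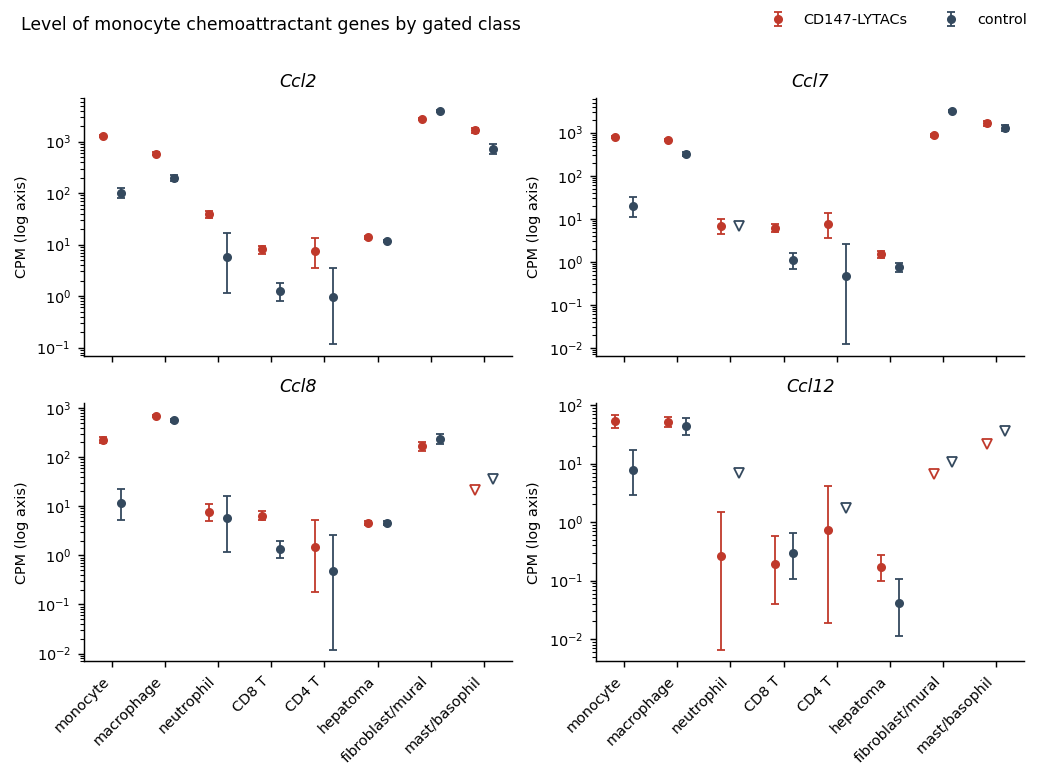
CPM on a log axis (vertical) of Ccl2, Ccl7, Ccl8 and Ccl12 in 8 gated classes (horizontal), with the CD147-LYTACs library left of control. Points are the level of 1 library with the exact Poisson 95% interval, and open triangles mark the upper limit where no UMI was counted; treated monocytes reach 1288 CPM of Ccl2 against 102 CPM in control, while treated fibroblast or mural cells lie below control for Ccl7.

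Lower levels of the chemoattractant genes appeared in CD8 T cells and neutrophils. CD8 T cells had 8.03 CPM of Ccl2 in CD147-LYTACs and 1.23 CPM in control, 6.21 and 1.08 CPM of Ccl7, and 6.47 and 1.33 CPM of Ccl8, which are the 3 genes counted as higher there. Without removal of doublets by score, the log2 ratios in CD8 T cells were 4.35 for Ccl2 and 3.94 for Ccl7, against 2.71 and 2.52 with it. These levels were 1.01% and 0.843% of the level in monocytes and macrophages for Ccl2, 0.957% and 0.633% for Ccl7, and 1.37% and 0.481% for Ccl8. The macrophage marker list stood in the same cells at 0.385% of its source level in CD147-LYTACs and 0.232% in control, with all 8 markers detected, and its part in the result was not tested. Neutrophils had 38.7 CPM of Ccl2 in CD147-LYTACs (148 UMIs, 75.0% of them in 10 of 1201 cells) and 5.63 CPM in control (3 UMIs), a log2 ratio of 2.78 with a wide interval of 1.20 to 5.07. There the macrophage list was at 51.3 CPM in CD147-LYTACs and 78.9 CPM in control.

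Hepatoma cells contained Ccl2 at 13.8 CPM in CD147-LYTACs (13.1 to 14.5) and 11.8 CPM in control (11.1 to 12.5), a log2 ratio of 0.23, and of 0.73 with equal weight per cell. Markers of fibroblasts or mural cells, which carry the gene, were at 324 CPM in treated and 224 CPM in control hepatoma cells with all 9 detected, and their part was not tested. Few hepatoma cells carried Ccl2: 12.1% of treated and 8.81% of control hepatoma cells held a UMI without thinning, at a median depth of 43478 and 46135 UMIs, and 10 cells held 37.1% and 48.2% of the UMIs. Ccl7 was at 1.48 CPM in treated and 0.744 CPM in control hepatoma cells, 0.229% and 0.435% of the monocyte and macrophage level, which lies below the 0.682% and 0.606% at which the macrophage markers appeared there. The log2 ratio of Ccl7 was 0.99, the one past 1.5-fold among the 7 members tested in hepatoma cells, and the part of macrophage transcripts in it was not tested. Ccl8 in hepatoma cells was at 4.47 CPM in CD147-LYTACs and 4.55 CPM in control.

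Where the UMIs of each gene sat follows both the level per cell and the number of cells sorted and captured, and fewer cells of a class and less RNA per cell cannot be told apart in such sums. Monocytes and macrophages held 45.5% of the 6428 Ccl2 UMIs in gated cells of CD147-LYTACs and 9.23% of the 2850 in control. Fibroblast or mural cells held 23.8% in CD147-LYTACs and 47.4% in control, although only 36 and 20 such cells were captured, and hepatoma cells held 21.4% and 39.3%. For Ccl7 the monocyte and macrophage share was 69.3% in CD147-LYTACs and 18.8% in control, and the fibroblast or mural share 13.9% and 67.0%. Among CD45-positive classes alone, whose ratio to one another the sort did not set, monocytes and macrophages held 83.1% of Ccl2 UMIs in CD147-LYTACs and 69.6% in control. Mast cells or basophils, numbering 30 and 20, held 8.19% of those Ccl2 UMIs in CD147-LYTACs and 20.1% in control.

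**Figure D3:**
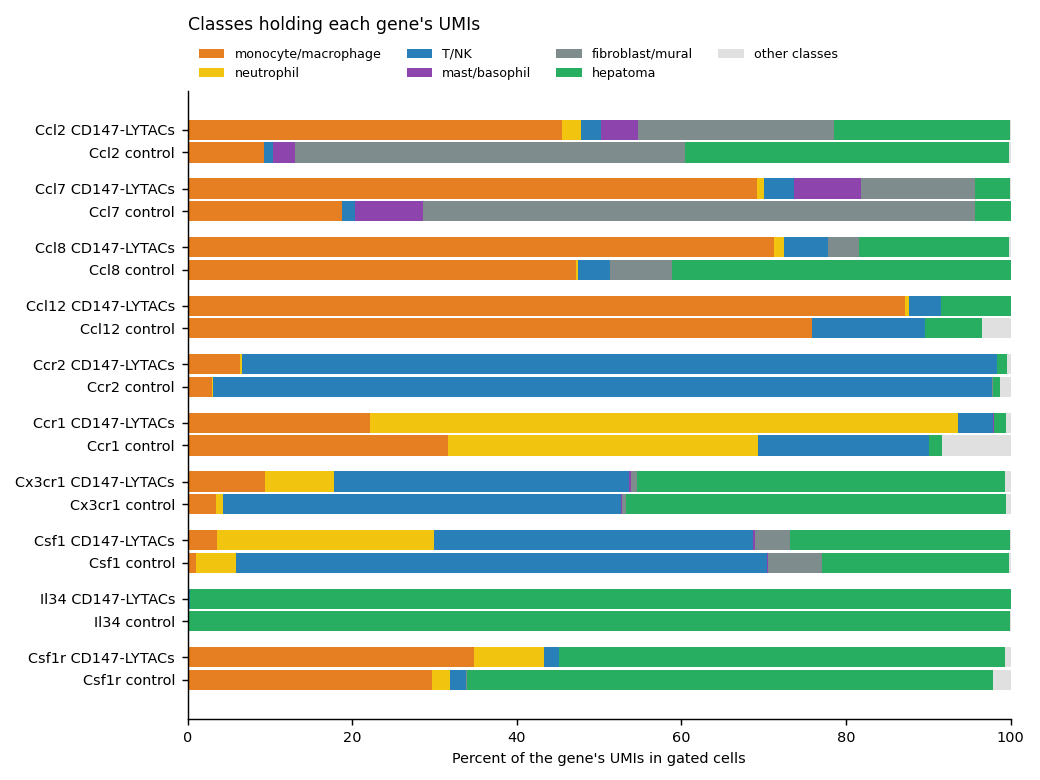
Percent of each gene's UMIs in gated cells (horizontal axis) held by each cell class, with the CD147-LYTACs library above control for each gene. Bars of 1 library add to 100 percent and reflect cell numbers as well as levels; hepatoma cells hold nearly all Il34, 99.7% in CD147-LYTACs and 99.8% in control.

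CCR2 is the receptor through which monocytes answer CCL2. Its gene stood in monocytes at 114 CPM in CD147-LYTACs (96.3 to 135) and 103 CPM in control (81.6 to 129), and the intervals overlapped. In monocytes without macrophage-marker UMIs it was at 141 CPM in CD147-LYTACs (62 UMIs) and 40.4 CPM in control (19 UMIs), a log2 ratio of 1.80. In macrophages 21 UMIs in CD147-LYTACs and 49 in control gave 10.0 and 56.0 CPM, but 27 of the control UMIs came from 1 cell and the sum was under the 100 UMIs set for a ratio. The joint class of monocytes and macrophages, which includes that cell, had 170 Ccr2 UMIs in CD147-LYTACs and 130 in control. Its level was 46.1 CPM against 72.2 CPM in control, which is 1.57-fold lower. How far the mix of monocytes and macrophages sets this joint value was not tested. Most Ccr2 UMIs lay outside the monocyte lineage: T and NK cells held 91.8% in CD147-LYTACs and 94.6% in control. CD8 T cells had 105 CPM in CD147-LYTACs (99.6 to 109.9) and 142 CPM in control (137 to 147), a log2 ratio of -0.44, which lies within 1.5-fold. CD4 T cells had 56.3 CPM in CD147-LYTACs (44.3 to 70.4) and 96.0 CPM in control (83.2 to 110.2), a log2 ratio of -0.77 (-1.17 to -0.38). After thinning, 10.1% of treated and 12.4% of control CD8 T cells held a Ccr2 UMI. Hepatoma cells, which should lack the gene, held one at full depth in 1.10% of treated and 1.75% of control cells, and after thinning in 0 of 2055 and 0 of 1880.

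CCR1 binds CCL3, CCL5, CCL7 and, in mice, CCL6 and CCL9. Neutrophils carried Ccr1 at 1006 CPM in CD147-LYTACs (974 to 1038) and 890.3 CPM in control (812 to 974), a log2 ratio of 0.18, with a UMI in 57.4% of treated and 54.6% of control cells after thinning. They held 71.6% of Ccr1 UMIs in CD147-LYTACs and 37.7% in control, beside 1201 and 154 neutrophils. In monocytes the level was 382 CPM in CD147-LYTACs (348 to 418) and 223 CPM in control (191 to 259), a log2 ratio of 0.77, which came under 1.5-fold in Leiden clusters (0.44) and in monocytes without macrophage-marker UMIs (0.54). Macrophages had 260 CPM in CD147-LYTACs (238 to 283) and 224 CPM in control (194 to 258), and the intervals overlapped, while with equal weight per cell the log2 ratio was 1.16.

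CX3CR1, the fractalkine receptor, marks patrolling monocytes and some effector lymphocytes. Cx3cr1 was at 63.8 CPM in treated (50.4 to 79.6, 78 UMIs) and 28.7 CPM in control monocytes (22 UMIs), a log2 ratio of 1.15. In monocytes without macrophage-marker UMIs it was at 40.9 CPM in CD147-LYTACs and 44.7 CPM in control, so the direction was not kept, and in Leiden clusters at 67.3 CPM (31 UMIs) and 16.0 CPM (8 UMIs). CD8 T cells had 36.8 CPM in CD147-LYTACs and 40.0 CPM in control, a log2 ratio of -0.12, and CD4 T cells 43.7 and 41.8 CPM. Hepatoma cells had 9.15 and 10.6 CPM, in a gene whose model overlaps other genes as given above.

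The receptor gene Csf1r was at 184 CPM in treated (161 to 210) and 208 CPM in control monocytes (177 to 242), a log2 ratio of -0.17. In macrophages it stood at 198 CPM in CD147-LYTACs (180 to 218) and 300.5 CPM in control (265 to 339), a log2 ratio of -0.60 (-0.83 to -0.37), just past 1.5-fold, and at -0.57 without cells near the line to monocytes. The macrophage marker list was also lower in treated macrophages, 5168 CPM against 5996 CPM in control. Neutrophils had 44.2 and 60.1 CPM, with overlapping intervals. Hepatoma cells showed Csf1r at 10.8 CPM in CD147-LYTACs (10.1 to 11.4) and 10.0 CPM in control (9.41 to 10.7). That was 5.74% and 4.06% of the monocyte and macrophage level, while the macrophage markers reached 0.682% and 0.606% there. At their greater depth, 30.1% of treated and 28.5% of control hepatoma cells held a Csf1r UMI, against 1.11% and 0.780% of CD8 T cells, and thinned to 1000 UMIs the hepatoma shares were 1.07% and 1.22% against 0.265% and 0.0390% in CD8 T cells. The Csf1r model overlaps another gene on the opposite strand, as given above, and the part of such reads in the hepatoma values was not tested. Of all gated Csf1r UMIs, hepatoma cells held 54.1% in CD147-LYTACs and 63.9% in control. Monocytes and macrophages held 34.8% and 29.7%.

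The ligand gene Csf1, for the macrophage growth factor, was found in neutrophils, T cells, hepatoma cells and fibroblast or mural cells. Neutrophils had 311 CPM in CD147-LYTACs (294 to 329) and 471 CPM in control (415 to 534), a log2 ratio of -0.60 (-0.80 to -0.40). All genes of this class had a median log2 ratio of -0.13, and relative to it Csf1 was at -0.47, within 1.5-fold, as it was with the stricter gate (-0.55) and the looser gate (-0.22). In CD8 T cells Csf1 stood at 98.0 CPM in CD147-LYTACs (93.1 to 103) and 145 CPM in control (139.7 to 150.2), a log2 ratio of -0.56 that falls just short of 1.5-fold. After thinning, 9.79% of treated (8.49 to 11.2) and 12.5% of control CD8 T cells (11.2 to 13.8) held a UMI. CD4 T cells had 54.0 and 62.3 CPM and hepatoma cells 12.1 and 12.4 CPM, with overlapping intervals in both. Monocytes had 23 Csf1 UMIs in CD147-LYTACs and 1 in control, and macrophages 52 and 40, too few for a ratio. T and NK cells held 38.8% of Csf1 UMIs in CD147-LYTACs and 64.6% in control, neutrophils 26.4% and 4.81%, beside the neutrophil numbers given above, hepatoma cells 26.7% and 22.7%, and fibroblast or mural cells 4.18% and 6.51%. The level in fibroblast or mural cells was 338 CPM in CD147-LYTACs and 997 CPM in control, from 36 and 20 cells. Most Ccr2-positive CD8 T cells held no Csf1 UMI after thinning. Csf1 was found in 14.7% of Ccr2-positive and 9.24% of Ccr2-negative treated cells, and in 16.0% and 12.0% of control cells.

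Il34 encodes the second CSF1R ligand, known from skin and brain. Here it was a gene of the tumour cells: hepatoma cells had 225 CPM in CD147-LYTACs (222 to 228) and 242 CPM in control (239 to 245), a log2 ratio of -0.10 (-0.13 to -0.08). They held 22467 of 22542 gated Il34 UMIs in CD147-LYTACs and 23050 of 23101 in control. A UMI was found in 83.8% of treated and 82.8% of control hepatoma cells, and after thinning in 368 of 2055 and 338 of 1880. CD8 T cells had 1.04 CPM in CD147-LYTACs and 1.53 CPM in control, 0.460% and 0.631% of the hepatoma level, where the hepatoma marker list reached 0.877% and 0.903%. Monocytes and macrophages of CD147-LYTACs had 5 and 11 Il34 UMIs and those of control 0 in both classes. Of the 3 CSF1 axis genes, none differed by 1.5-fold in hepatoma cells.

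**Figure D4:**
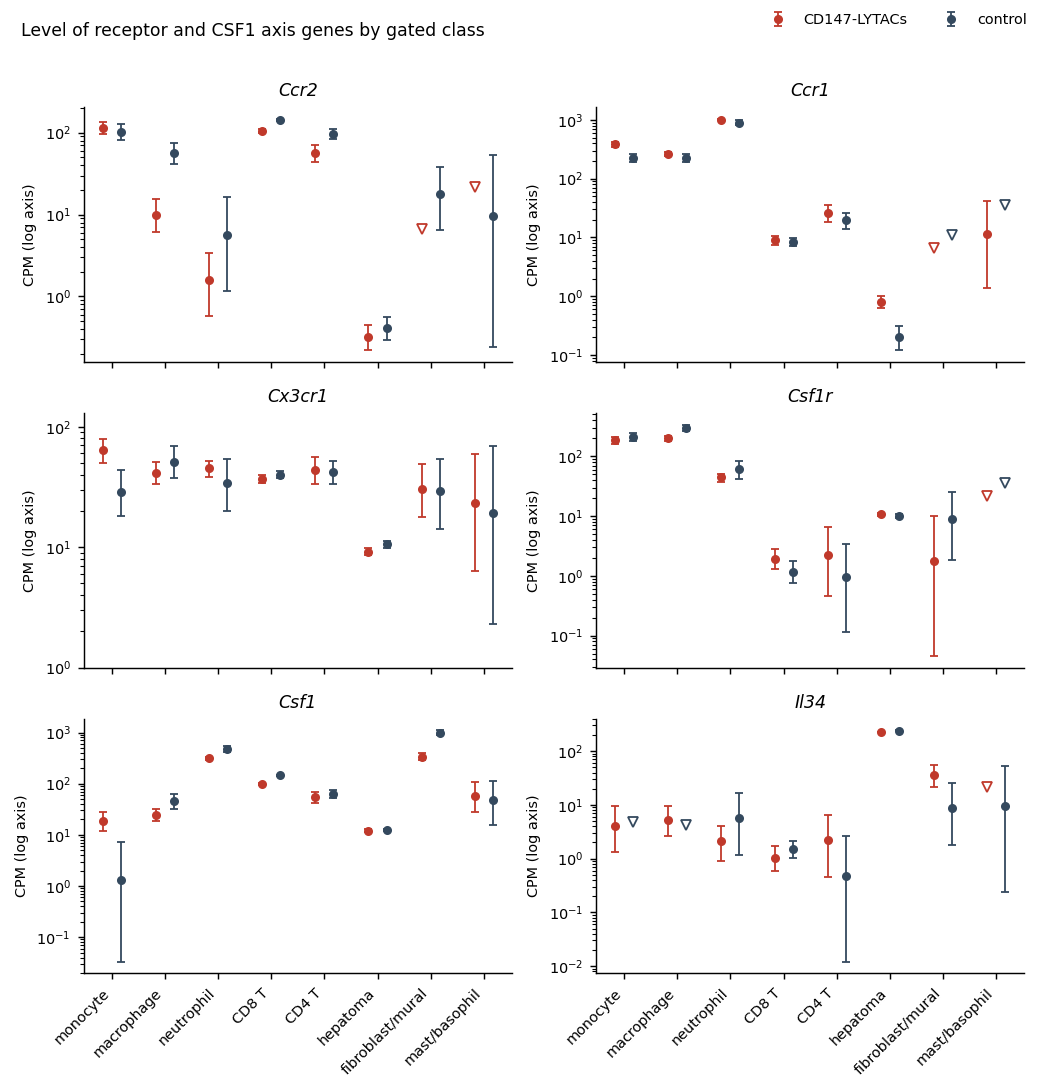
CPM on a log axis (vertical) of Ccr2, Ccr1, Cx3cr1, Csf1r, Csf1 and Il34 in 8 gated classes (horizontal), with the CD147-LYTACs library left of control. Points are the level of 1 library with the exact Poisson 95% interval, and open triangles mark the upper limit where no UMI was counted; Il34 stands at 225 and 242 CPM in hepatoma cells, and Csf1 in neutrophils at 311 and 471 CPM.

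A list of 32 other genes of these pathways was described in the same way. In monocytes 24 were tested, with 6 at least 1.5-fold higher and 3 lower, against 8.29% and 8.77% of all genes. The median log2 ratio was 0.11 beside -0.04 over all genes. The extremes were Ccl9, a mouse CCR1 ligand, at 506 CPM in CD147-LYTACs and 171 CPM in control, and Nr4a1, a factor of patrolling monocytes, at 46.6 and 94.0 CPM. Ccl3 and Ccl6, also CCR1 ligands, were higher as well, at 1138 CPM in CD147-LYTACs against 480.3 CPM in control and 555 against 249 CPM, whereas Ccl5, another CCR1 ligand, was lower, at 543 against 826 CPM. Irf8, a factor of monocyte and dendritic cell development, was lower too, at 204 against 318 CPM.

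In macrophages 22 of the 32 were tested, with 5 higher and 3 lower, against 8.38% and 9.28% of all genes. The median was -0.13 beside 0.02. Csf3, the neutrophil growth factor G-CSF, had the highest ratio, at 107 CPM in CD147-LYTACs and 14.9 CPM in control (13 UMIs). Ccl3 stood at 892 and 288 CPM, and Ccl6 at 1498 and 636 CPM. The lower genes included Ccl5, a CCR1 ligand, at 453 CPM in treated and 872 CPM in control macrophages, and Inpp5d, a phosphatase of receptor signalling, at 89.1 and 163 CPM. In neutrophils 20 were tested, with 3 higher, 4 lower and a median of -0.18 beside -0.13, where 7.93% of all genes were higher and 18.2% lower, so the share of lower genes was near that of all genes. There Csf3 was at 571 CPM in CD147-LYTACs and 71.4 CPM in control (38 UMIs), Ccl3 at 14831 and 9079.6 CPM and Ccl4, a related chemokine, at 16965 and 8803.5 CPM. The 4 lower genes were Ccl5, with a log2 ratio of -0.68 from 130 UMIs in CD147-LYTACs and 29 in control, Spi1, the gene of PU.1, at 244 CPM in CD147-LYTACs and 396 CPM in control, Klf4, at 21.7 and 33.8 CPM, and Nr4a1, at 188 and 295 CPM.

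CD8 T cells had 21 genes tested, 9 higher and 0 lower, against 1.83% and 1.14% of all genes, with a median of 0.28 beside -0.03. These included Ccl3 at 93.2 CPM in CD147-LYTACs and 48.5 CPM in control and Ccl4 at 263 and 162 CPM, both made by activated T cells. They also included the myeloid genes Spi1, at 8.29 and 2.26 CPM, and Tyrobp, at 14.5 and 6.69 CPM. Macrophage markers in CD8 T cells were at 12.2 CPM in CD147-LYTACs and 7.04 CPM in control, and their part in these differences was not tested. CD4 T cells had 13 tested, 1 higher (Ccl5, at 163 and 98.4 CPM) and 3 lower, among them Maf, a transcription factor, at 293 and 468 CPM. Of all genes tested in CD4 T cells, 2.21% were higher and 3.44% lower. Hepatoma cells had 23 tested, 7 higher and 0 lower, against 1.52% and 2.19% of all genes, with a median of 0.07 beside -0.02. The highest ratio there was that of Ccl3, at 11.7 CPM in CD147-LYTACs and 1.86 CPM in control, while the neutrophil marker list in hepatoma cells was at 15.9 and 4.16 CPM with all 9 markers detected. The part of those transcripts in the hepatoma values was not tested.

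Across 22 points, 11 classes in each of 2 libraries, the genes whose log2(CPM + 1) most resembled each member were ranked by Pearson correlation, as a description in which points share library and depth. Ccl2 and Ccl7 were most like each other (r = 0.962), followed for both by Lpar1 and Il6, with r between 0.886 and 0.931. Ccl12 was closest to the macrophage gene Trem2 (r = 0.942), which is among the markers used for gating, then Cbr2 and Ms4a8a. Ccl8 was closest to Rab3il1, Igf1 and Gm826, at r of 0.903 to 0.908. For the receptors, Csf1r came nearest to Edn1, Trim25 and P2ry6, Ccr1 to Eldr, Ehd1 and Gm38560, and Ccr2 to Lin54, Atp2b4 and Frs2, all with r above 0.9. Il34 was closest to Tbx3 (r = 0.915), Lurap1l and Fign. Csf1 and Cx3cr1 had weaker matches, 0.803 each, with 1600020E01Rik and Adam30 in first place.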

How the data were processed

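Droplet single-cell RNA sequencing of 2 samples gave 1 matrix each, deposited as raw UMI counts per gene and barcode. Cell Ranger 3.0.2 and mm10 are named per the submitters' processing notes, whereas the file headers name Cell Ranger 7.1.0. Every barcode held at least 500 UMIs. Barcodes were kept from 300 genes upward and up to 15% mitochondrial UMIs (8176 in CD147-LYTACs, 7091 in control). The automatic Scrublet threshold marked 134 and 1 barcodes and had not worked in control, so the highest scores were removed at 0.8% per 1000 barcodes (535 and 402), leaving 7641 and 6689.

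Each barcode was assigned to a class by the share of its UMIs on marker lists, none containing a member. Barcodes of several classes (456 and 163) or none (366 and 269) were left out. Monocytes and macrophages were split by the marker list with more UMIs. UMIs were summed per library and class as CPM with exact Poisson 95% intervals, shares have exact binomial (Clopper-Pearson) intervals, ratios exact conditional binomial ones, and a count of 0 was taken to allow up to 3 counts. All cover counting error only. For shares, cells were thinned to 1000 UMIs, and 8 and 0 monocytes, 22 and 12 macrophages and 46 and 13 neutrophils below that depth were left out. A ratio needed 100 UMIs over both libraries, and 1.5-fold served as the threshold of size. All members were described in classes of at least 100 cells per library, other pathway genes by counts with values for those past 1.5-fold or at the extremes, and the 3 most similar genes by correlation. Values of some listed genes are not reported here.

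Members, lists and gates were chosen with earlier results of these data known. Calculations used Python 3.11.15, numpy 2.4.6, scipy 1.17.1, pandas 2.3.3 and scanpy 1.11.5, and the ratio step was tested on simulated data. Alternatives were another scaling, equal weight per cell, stricter and looser gates, Leiden clusters (without the members), 10% mitochondrial UMIs, no doublet removal and other UMI minimums. Leaving out cells near the monocyte and macrophage line, and monocytes with macrophage-marker UMIs, was added after seeing the data.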

Additional observations from a re-analysis of the deposited data

Results flagged for a closer look

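Barcodes carrying markers of both T or NK cells and monocytes or macrophages were outside every comparison, and the chemoattractant genes were abundant in them. There were 324 such barcodes in CD147-LYTACs and 70 in control. Ccl2 stood in them at 513 CPM in CD147-LYTACs and 124 CPM in control, and Ccl7 at 565 CPM in CD147-LYTACs and 299.6 CPM in control. Ccl8 ran the other way, at 529.7 CPM in CD147-LYTACs and 791 CPM in control, a difference of less than 1.5-fold. This order was not kept over barcodes of any mixed kind, where Ccl8 was higher in CD147-LYTACs, also by less than 1.5-fold. Barcodes of any mixed kind held 20.5% of all Ccl2 UMIs of the CD147-LYTACs library and 5.65% in control, and 41.7% and 40.6% of Ccl8 UMIs. What these barcodes hold was not tested.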

How the results depend on the processing

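Of the 15 pairs past 1.5-fold, 11 stayed past it in every alternative when each had to hold 100 UMIs, and 9 with no such minimum. The 2 pairs between these counts rest on few UMIs: Cx3cr1 in monocytes turned round without macrophage-marker UMIs (-0.13, from 18 and 21 UMIs), and Ccl8 in monocytes in Leiden clusters (17 and 43 UMIs). Ccl2 in macrophages had a log2 ratio of 0.82 with equal weight per cell, 1.30 with the stricter gate and 1.21 in Leiden clusters. Ccl2 in monocytes had 1.43 in Leiden clusters and 2.97 without macrophage-marker UMIs. In both classes together, Ccl2 had 1.96, 2.17 and 2.19, and Ccl7 1.44, 1.56 and 1.44, with equal weight per cell, the stricter gate and Leiden clusters. Il34 in hepatoma cells had -0.15 with equal weight per cell. Pairs at least 1.5-fold higher numbered 7 of 33 in Leiden clusters and 22 of 55 with at least 1 UMI, and pairs lower 5 of 45 with at least 30 UMIs and 8 of 55 with at least 1 UMI. No share over all genes is given for these settings, so these counts are not read as a result about the members. Why these values moved was not tested, except that lower minimums admit more pairs. Leaving out a replicate was not possible with 1 library per group. No paired analysis was possible because each group is 1 library. Of the 6 classes, control neutrophils had the fewest UMIs (532402), then control monocytes (766139) and macrophages (875228).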

Other observations

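In classes with fewer than 100 cells in a library, singled out after their values were seen, the chemoattractant and growth factor genes had the following levels. Fibroblast or mural cells (36 in CD147-LYTACs, 20 in control) held Ccl2 at 2754 CPM in CD147-LYTACs and 3963 CPM in control, and Ccl7 at 862 and 3227 CPM. Ccl7, and Csf1 given above, were at least 1.5-fold lower in treated cells. Ccl2 was lower by less than 1.5-fold, at a log2 ratio of -0.53 (-0.63 to -0.42). These directions for Ccl2 and Ccl7 were opposite to those in monocytes and macrophages. The 10 fibroblast or mural cells with the most Ccl7 held 85.6% of its UMIs in CD147-LYTACs and 93.8% in control. Mast cells or basophils (30 and 20) held Ccl2 at 1672 CPM in CD147-LYTACs and 727 CPM in control, and Ccl7 at 1637 and 1302 CPM, with Ccl8 and Ccl12 at 0 UMIs in both libraries. Regulatory T cells (64 and 85) held Ccr2 at 393 CPM in CD147-LYTACs (342 to 449) and 627 CPM in control (569 to 689), a log2 ratio of -0.67, the same direction as in CD4 and CD8 T cells. A Ccr2 UMI was present in 65.6% of treated and 76.5% of control regulatory T cells.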
